A study of Danio rerio with 26 samples.

Results

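Brain RNA of male zebrafish (Danio rerio) aged 1 year was compared between 37.5 nM and 3.75 nM rotenone, over all genes that could be tested. The 19 libraries, of 26 in the series, were chosen by their labels for age and concentration: 9 carry 37.5 nM and 10 carry 3.75 nM. Both groups share the strain AB JxTu, the sex, the age and the tissue, and the labels give no untreated fish, so every value is a difference between concentrations and none is an effect of rotenone against its absence. Rotenone is a plant compound that blocks complex I of the mitochondrial respiratory chain. Titles number the zebrafish one by one, and neither pooling of animals nor the hour at which brains were taken is given. The p-values measure the spread between these samples.

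Counts for each concentration were deposited as a separate table, so the concentration cannot be told apart from the table or from anything prepared with it. The title numbers fall into a lower run (163 to 177; 5 libraries at 3.75 nM, 4 at 37.5 nM) and a higher run (189 to 202; 5 and 5) that crosses both concentrations. What separates the runs is not stated, and the run was a covariate in the test. Totals averaged 27.0 ± 3.11 (SD, n = 9) and 26.7 ± 4.26 (n = 10) in units of 1000000 counts at 37.5 and 3.75 nM, with a range of 20.6 to 32.7, and 1 count per 1000000 (CPM) equals 20.6 counts in the smallest library. In every library MT-CO1, which the mitochondrial genome encodes for complex IV, had the most counts. Genes that mark brain tissue were abundant in both groups, among them mbpa, which codes for a myelin protein (mean 10373 CPM at 3.75 nM and 10559 at 37.5 nM), and SNAP25 (ENSDARG00000020609), of the synaptic vesicle fusion machinery (4142 and 4321 CPM).

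The circadian clock is a feedback loop of transcription. In vertebrates, BMAL and CLOCK proteins bind E-box elements and switch on the genes of their own repressors, the period and cryptochrome proteins, and a side loop in which ROR receptors raise and NR1D (REV-ERB) receptors lower transcription at ROR elements sets the level of BMAL1. Zebrafish hold extra copies of many of these genes, and most of their tissues, the brain included, keep a clock that light can set. Heat shock proteins are chaperones that fold or refold other proteins. Their mRNAs rise with temperature and with misfolded protein, and in many animals some of them vary over the day.

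Library 6 of the 3.75 nM group (the first of its higher run) stood apart. A score was built from 129 genes that differed between the runs within the 37.5 nM group alone, as the mean log2 CPM of the 91 genes higher in the higher run minus that of the 38 lower ones. The 3.75 nM libraries, which took no part in choosing those genes, scored -0.12 to 0.07 in the lower run and 0.70 to 1.05 in 4 of 5 libraries of the higher run, while replicate 6 scored -0.16. In these genes replicate 6 thus lay below all of the other libraries of its group, next to those of the lower run. Results are given with and without it for some of the genes that it moves, not for all.

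**Figure D1:**
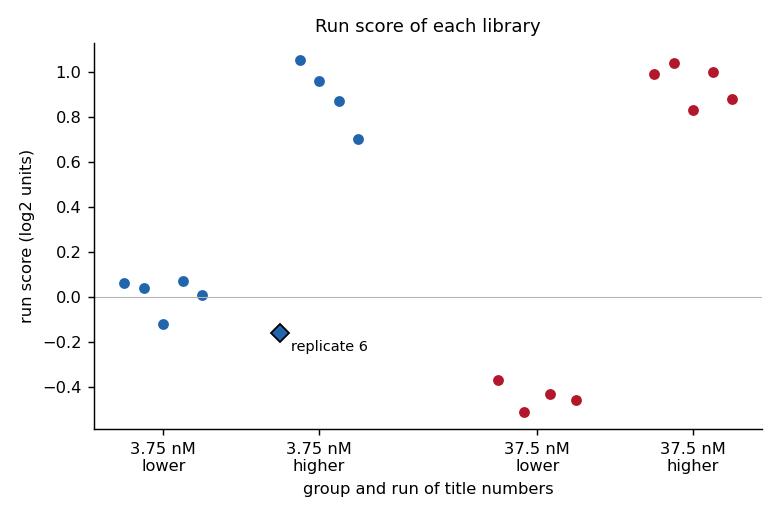
Run score (log2 units, vertical axis) of each library by concentration and run of title numbers (horizontal axis); blue is 3.75 nM, red is 37.5 nM, and the diamond is replicate 6 at 3.75 nM. The genes of the score were chosen on the red points, so only the blue points are informative: 4 of the 5 in the higher run lie between 0.70 and 1.05, and the diamond lies at -0.16.

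RNA of tissues next to the brain also differed between libraries. Scores of marker lists (the list's mean log2 CPM, against the median library) exceeded 1.5 in 9 libraries, 5 at 37.5 nM and 4 at 3.75 nM. Pineal and melatonin genes were high in 4 libraries (replicates 1 and 5 of each group), skeletal muscle genes in 2 (replicate 4 of each group) and skin genes in 4 (replicates 7 and 8 at 37.5 nM, 3 and 4 at 3.75 nM). The summed level of the pineal list ran from 95.7 to 653 CPM at 3.75 nM and from 105 to 681 CPM at 37.5 nM, that of muscle from 304 to 3621 and from 291 to 4784 CPM, and that of skin from 316 to 3800 and from 335 to 784 CPM. No gene of these 3 lists passed by edgeR or DESeq2 (of 25, 35 and 21 tested), and no member was at 0 in every library.

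Few genes differed between the concentrations. Of 19691 genes tested, 24 passed at an adjusted p under 0.05 by edgeR's quasi-likelihood test with Benjamini-Hochberg adjustment (0.122%), 17 higher (0.0863%) and 7 lower (0.0355%) at 37.5 nM, and 2423 had an unadjusted p under 0.05 (12.3%; 4.67% higher and 7.64% lower). Clock genes made up 9 of the 24. The clock list, like the other lists, was chosen with earlier results of these data known, so this count is no independent evidence. The differences were mostly small: 3 of the 24 reached a log2 fold change of 1 in size, among them si:ch211-132b12.7 and the unnamed gene ENSDARG00000043237. The clock gene rorcb fell just short of it, at 0.9992. In 23 of the 24 genes, 9 of 9 fish at 37.5 nM lay on the same side of the 3.75 nM median, and in 6 the groups did not overlap at all, as they did not in 7 of all genes tested (0.0355%; 0.0305% higher and 0.00508% lower). The largest unadjusted p of any of the 24 over 36 alternative fits was 0.0409. The 24 were called on these same fish, so these counts and this p describe the calls and are no separate evidence for them.

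**Figure D2:**
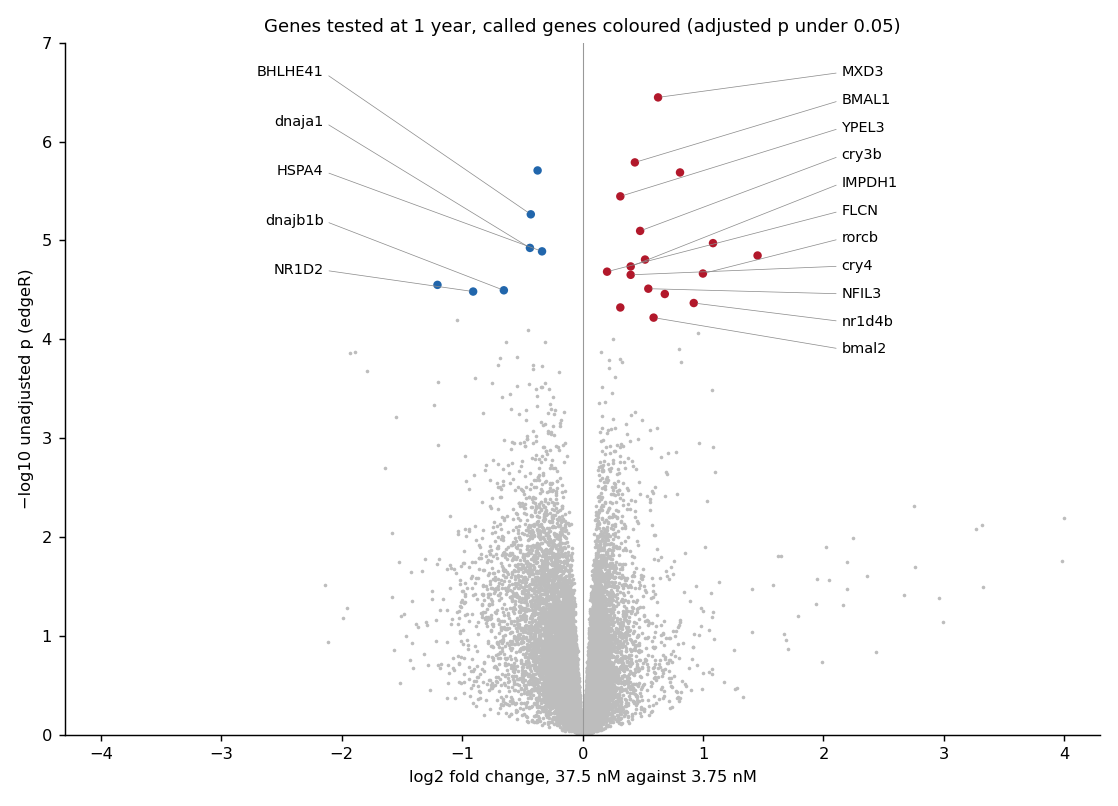
Log2 fold change at 37.5 nM against 3.75 nM (horizontal axis) and the size of the unadjusted edgeR p on a −log10 scale (vertical axis) of every gene tested. Coloured points are the 17 genes higher (red) and 7 lower (blue) at an adjusted p under 0.05, with names for those in the clock, heat shock and YPEL3 and MXD3 lists, most of them within 1 log2 unit of no change.

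The count of 24 was not stable. Leaving out replicate 6 at 3.75 nM raised it to 38 (22 higher, 16 lower), and these held all of the 24. The count fell to 8 without replicate 3 of either group, to 11 without replicate 1 and 13 without replicate 5 at 3.75 nM, to 12 without replicate 4, 6 or 9 at 37.5 nM, and to 14 without replicate 5 at 37.5 nM. Without the 9 libraries of high marker scores 0 genes passed by edgeR (1387 at unadjusted p under 0.05), and in the higher run alone 0 passed (2454). DESeq2 called 199 genes (1.12%). Each of the 24 genes kept its direction in all 36 alternative fits, and 6 kept the call in all of the 19 fits that left out 1 library. All 24 had the same sign in both runs. The genes were chosen on these same libraries, so their kept signs are no independent evidence. The test of whether the concentration difference itself differed between the runs (the interaction of concentration and run) called 0 genes by edgeR (1452, or 7.37%, at unadjusted p under 0.05) and 23 by DESeq2.

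Among the clock's activators, both BMAL genes that passed were higher at 37.5 nM. BMAL1 (ENSDARG00000006791), the partner of CLOCK, ran from 48.4 through a median of 55.9 to 74.5 CPM at 3.75 nM and from 71.4 through 83.1 to 87.5 CPM at 37.5 nM. All but the lowest fish at 37.5 nM exceeded the highest at 3.75 nM, and replicate 6 at 3.75 nM, with 49.7 CPM, lay among the lower run (48.4 to 56.4) and not among the other 4 fish of its own run (67.3 to 74.5). BMAL1 rose by a log2 fold change of 0.43 (SE 0.06, adjusted p = 0.0101), by 0.55 in the lower run and 0.36 in the higher run, and by 0.27 in the higher run without replicate 6. This call held in 19 of 19 fits with 1 library left out. Expression of bmal2, its paralog, went from 7.44, 9.54 and 16.2 CPM (lowest, median, highest) to 11.4, 15.5 and 21.5 CPM. The lowest value was that of replicate 6, when the rest of its run had 11.4 to 16.2 CPM. The groups overlapped, although 9 of 9 fish exceeded the other median, and the change of 0.59 (SE 0.11, adjusted p = 0.0495) was called in only 4 of 19 fits. The second BMAL1 gene (ENSDARG00000035732; 0.18, SE 0.11), both CLOCK genes (ENSDARG00000003631 at 0.03, ENSDARG00000011703 at 0.04) and npas2 (-0.28, SE 0.13), a CLOCK relative, did not pass.

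The period, cryptochrome and bhlhe group moved in both directions: 2 of 16 genes were higher and 1 was lower (0.0863% and 0.0355% of all genes). A negative log2 fold change was seen in 12 of the 16 (51.6% of all genes). In vertebrates most of these proteins hold back BMAL and CLOCK. BHLHE41, a repressor at E-boxes in mammals, had 92.9, 107 and 135 CPM (lowest, median, highest) at 3.75 nM and 71.7, 77.0 and 93.9 CPM at 37.5 nM. It fell by 0.43 (SE 0.07, adjusted p = 0.0179), by 0.43 in the lower run and 0.41 in the higher run (0.31 there without replicate 6). All 9 fish at 37.5 nM were below the other median and 8 were below every fish at 3.75 nM, and the call held in 19 of 19 fits.

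The cryptochrome family genes cry3b and cry4 rose instead. For cry3b, the values were 169.6, 259 and 301 CPM at 3.75 nM and 325.5, 354 and 366 CPM at 37.5 nM. Every fish at 37.5 nM exceeded every fish at 3.75 nM, and the lowest value of all was that of replicate 6. The difference of 0.48 (SE 0.08, adjusted p = 0.0225) was 0.42 without replicate 6, and 0.48 in the lower and 0.51 in the higher run. The value of the higher run includes replicate 6, which lay below the rest of that run at 3.75 nM (253.8 to 301 CPM). For cry4, values of 41.3, 51.0 and 62.6 CPM stood against 60.6, 71.1 and 76.4 CPM. One fish of 9 at 37.5 nM lay within the range of the other group, and cry4 rose by 0.40 (SE 0.07, adjusted p = 0.0274), a call kept in 10 of 19 fits.

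The period genes did not pass over all genes. PER3, a period repressor, had a log2 fold change of -1.198 (SE 0.27, adjusted p = 0.104), with 56.4, 74.0 and 241 CPM at 3.75 nM and 26.5, 39.2 and 72.2 CPM at 37.5 nM. Its highest value belonged to replicate 6, and without that library the change was -0.84 and passed (adjusted p = 0.00675). PER1 (ENSDARG00000012499) stood at -0.83 (SE 0.20, adjusted p = 0.14), and at -0.16 in the higher run without replicate 6 against -1.04 in the lower run. The second PER1 gene (ENSDARG00000056885; -0.58, SE 0.18), ciarta (-0.51, SE 0.18), ciartb (-0.51, SE 0.26) and BHLHE40 (-0.34, SE 0.07) also had negative values that did not pass. PER2 (-0.13, SE 0.07), CRY2 (-0.20, SE 0.08) and the CRY1 genes (ENSDARG00000011583 at -0.21, ENSDARG00000045768 at -0.02) were nearer to no change, as was TIMELESS (0.06, SE 0.05), and cry3a stood at 0.22 (SE 0.05, adjusted p = 0.0877). The gene cry5, a photolyase gene in zebrafish, had -0.36 (SE 0.14) and did not pass.

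**Figure D3:**
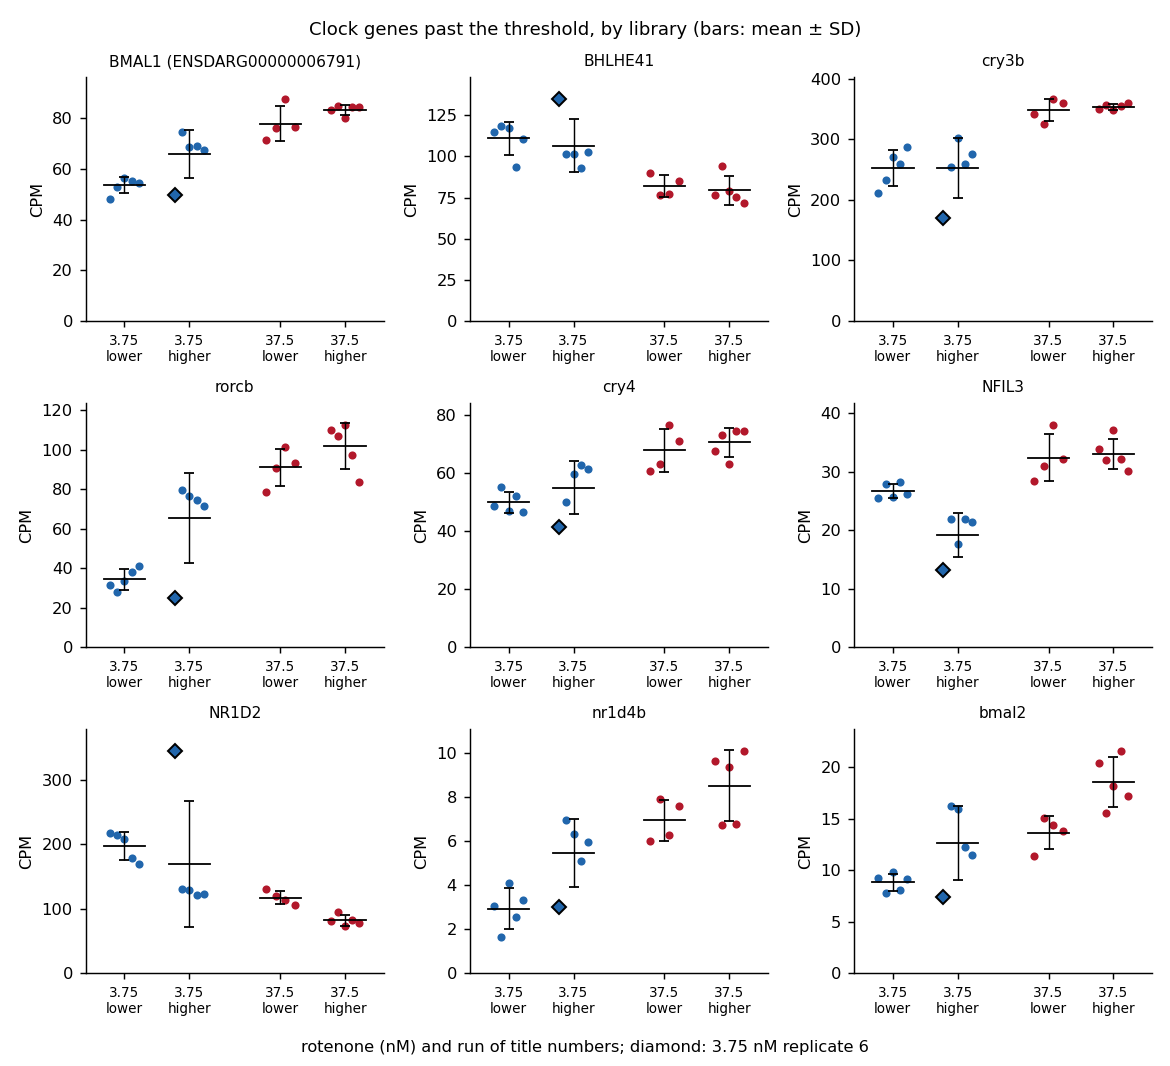
CPM (vertical axes, from 0) of the 9 clock genes past the threshold in each library, by concentration and run of title numbers. Blue points are 3.75 nM, red points 37.5 nM, the diamond is replicate 6 at 3.75 nM, and black lines give the mean ± SD of each set of 4 or 5 fish; in rorcb the 4 other blue points of the higher run, at 71.6 to 79.7 CPM, lie near the red ones, and the diamond, at 25.1 CPM, does not.

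The nr1d and ror genes of the side loop were grouped here with the nfil3 genes. Of these 14 genes, 3 were higher (rorcb, nr1d4b and NFIL3) and 1 was lower (NR1D2) at 37.5 nM (0.0863% and 0.0355% of all genes). The gene rorcb codes for a ROR receptor, a group of activators at ROR elements. It had 25.1, 39.4 and 79.7 CPM at 3.75 nM and 78.5, 97.0 and 112 CPM at 37.5 nM, so that 8 of 9 fish exceeded the other group's range. The 3.75 nM fish split by run, with 27.9 to 41.0 CPM in the lower run and 71.6 to 79.7 CPM in the 4 fish of the higher run other than replicate 6. The overall log2 fold change was 0.9992 (SE 0.18, adjusted p = 0.0274), but 1.42 in the lower run, 0.65 in the higher run and 0.44 in the higher run without replicate 6. The call held in 10 of 19 fits.

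NR1D2, a REV-ERB repressor at ROR elements, went the other way. It had 122, 174 and 344 CPM at 3.75 nM and 73.2, 95.1 and 130.4 CPM at 37.5 nM. The fish at 3.75 nM with the highest value was replicate 6, at 344 CPM, when the other 4 of its run had 122 to 131 CPM. NR1D2 fell by 0.91 (SE 0.17, adjusted p = 0.0324), and by 0.69 without replicate 6, where its adjusted p was the smallest of all genes (3.22e-05), against at most 0.0863 over the 19 fits that left out 1 library. The gene nr1d4b, of the same receptor family, rose by 0.92 (SE 0.17, adjusted p = 0.0385) from 1.63, 3.71 and 6.93 CPM to 5.998, 7.58 and 10.1 CPM, opposite in direction to NR1D2. Its level in replicate 6 was 2.996 CPM, within the lower run (1.63 to 4.09 CPM), when the rest of the higher run at 3.75 nM had 5.09 to 6.93 CPM. The remaining nr1d genes, nr1d4a (0.44, SE 0.13), NR1D1 (0.12, SE 0.13) and nr1d2a (-0.13, SE 0.23), did not pass.

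NFIL3, a bZIP repressor, had 13.2, 23.7 and 28.2 CPM at 3.75 nM and 28.4, 32.1 and 37.9 CPM at 37.5 nM. The groups did not overlap, by a narrow margin, and NFIL3 rose by 0.55 (SE 0.10, adjusted p = 0.0324), by 0.29 in the lower and 0.80 in the higher run, with the call kept in 6 of 19 fits. Its relative nfil3-5 did not pass at 0.96 (SE 0.19, adjusted p = 0.0624), although its groups did not overlap either (56.8 to 229.5 CPM against 235.5 to 401 CPM), and it passed without replicate 6 (0.86, adjusted p = 0.00675). Another member, nfil3-6, had the opposite sign (-0.54, SE 0.20) and did not pass. Among the ror genes rorca stood at 0.40 (SE 0.10, adjusted p = 0.173), rorab at 0.14, RORA at 0.11 and RORB at -0.14, none past the threshold.

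Downstream of the loop, 0 of 6 genes of the bZIP activators that bind D-boxes passed. The log2 fold change was -0.35 (SE 0.09) for tefa, -0.21 for tefb, -0.43 (SE 0.14) for dbpa, -0.05 for dbpb, 0.29 (SE 0.13) for hlfa and 0.05 for HLF. Among kinase and ubiquitin ligase genes 0 of 5 passed, with -0.21 (SE 0.07) for csnk1da, -0.17 (SE 0.05) for CSNK1D and 0.08 for csnk1e. In all, 7 clock genes were higher, 2 lower and 38 did not pass of 47 (0.0863% of all genes were called higher and 0.0355% lower). At unadjusted p under 0.05, 13 were higher and 16 lower (4.67% and 7.64% of all genes). The list's median log2 fold change was -0.015, against -0.005 for all genes, and the members were spread to both sides. Leaving out 1 library at a time gave 2 calls without replicate 3 at 37.5 nM, 3 without replicate 1, 3 or 5 at 3.75 nM or 4 at 37.5 nM, 4 without replicate 5, 6 or 9 and 5 without replicate 2, 7 or 8 at 37.5 nM, and 6 to 11 otherwise. Without replicate 6 at 3.75 nM the list had 11 calls, in the lower run alone 5, without the muscle-high libraries 2, and without the pineal-high or the skin-high libraries 0.

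**Figure D4:**
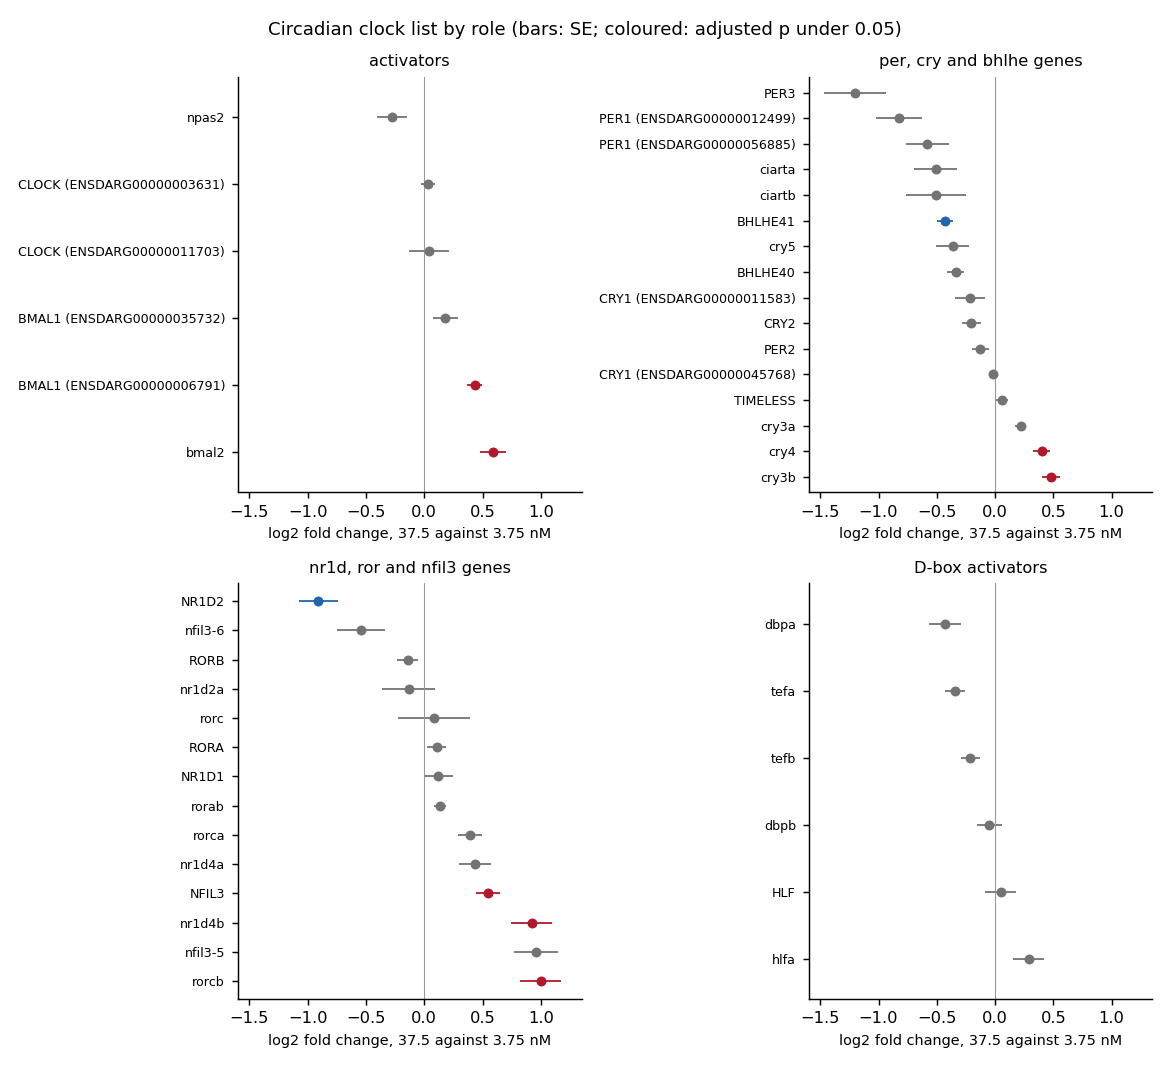
Log2 fold change at 37.5 nM against 3.75 nM (horizontal axis, bars are SE) of the clock genes tested, in panels for 4 of the 5 roles. Coloured points passed at an adjusted p under 0.05: bmal2 and BMAL1 among the activators, BHLHE41, cry4 and cry3b in the second panel, and NR1D2, NFIL3, nr1d4b and rorcb in the third.

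The members did not differ in level by concentration alone. Of the 24 called genes, 10 also differed between the runs at an adjusted p under 0.05, as did 2259 of all genes (11.5%; 6.19% higher and 5.29% lower in the higher run), and so did 21 of the 47 clock genes. The hour at which brains were taken is not given, so a difference in hour between the groups cannot be told apart from the concentration. The group difference was larger in the lower run for 13 of the 24 and in the higher run for 11. In the higher run without replicate 6, 20 of the 24 differences were smaller than in the whole comparison and 1 (rorcb) was under 0.5 times as large. Replicate 6 was the more distant from 37.5 nM, outside the range of the other 4 fish of its run, in 20 of the 24 (24.7% of all genes). It was among the fish on which the 24 genes and the signs of their differences were chosen. Neither count of 20 is therefore independent evidence about this library.

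Heat shock genes were lower at 37.5 nM where they passed: 0 of 31 were higher and 3 were lower (0.0863% and 0.0355% of all genes). Of the 3, dnaja1 and dnajb1b code for co-chaperones of the HSP40 family and HSPA4 (ENSDARG00000004754) for an HSP110 family partner of HSP70. The gene dnaja1 had 26.2, 36.9 and 43.8 CPM at 3.75 nM and 22.5, 23.6 and 33.5 CPM at 37.5 nM. Ranges overlapped, with 5 of 9 fish below every fish at 3.75 nM, and dnaja1 fell by 0.44 (SE 0.07, adjusted p = 0.0254), by 0.37 in the lower run and 0.47 in the higher run (0.33 there without replicate 6). For HSPA4, values of 61.1, 84.7 and 109 CPM stood against 53.02, 63.0 and 86.4 CPM, and 8 of 9 fish lay below the other median. This gene fell by 0.34 (SE 0.06, adjusted p = 0.0254). The second HSPA4 gene (ENSDARG00000018989) did not pass, with 125.4 to 158.4 CPM at 3.75 nM and 130.5 to 161.2 CPM at 37.5 nM. The level of dnajb1b was low, at 2.98, 4.61 and 6.12 CPM against 1.804, 2.57 and 4.20 CPM, and it fell by 0.65 (SE 0.12, adjusted p = 0.0324).

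Most other heat shock genes had values of the same sign without passing. Of the 31 genes, 27 had a negative log2 fold change (51.6% of all genes did), 10 were lower and 1 was higher at unadjusted p under 0.05 (7.64% and 4.67% of all genes), and the median was -0.16. SERPINH1 (ENSDARG00000019949), the collagen chaperone HSP47, stood at -1.89 (SE 0.39, adjusted p = 0.0796) and dnajb1a at -0.54 (SE 0.11, adjusted p = 0.0835). At 3.75 nM SERPINH1 had 8.58 to 16.4 CPM in the lower run and 15.3 CPM in replicate 6. The rest of the higher run had 1.47 to 2.02 CPM, close to 0.961 to 1.78 CPM at 37.5 nM in that run. In the lower run 37.5 nM fish had 1.72 to 3.73 CPM. HSP90AA1 (-0.29, SE 0.07), hsf1 (-0.29, SE 0.07), the transcription factor of the heat shock response, and HSPA8 (ENSDARG00000068992; -0.17, SE 0.06) were not past the threshold. A gene of the HSP70 family outside the list, HSPA2, was just outside the threshold at -1.04 (SE 0.20, adjusted p = 0.0505) and was chosen after its values were seen. The list's medians were -0.19 in the lower and -0.12 in the higher run. Of the 31 genes 13 differed between the runs themselves (11.5% of all genes did), dnaja1 (-0.35), HSPA4 (ENSDARG00000004754; -0.45) and dnajb1b (-0.58) among them, each lower in the higher run. The number of calls was 0 without replicate 3 at 3.75 nM, 1 without replicate 3, 4 or 9 at 37.5 nM, 5 without replicate 8 at 3.75 nM, and 2 to 4 without any other library. It stayed 3 without replicate 6 at 3.75 nM, became 1 without the muscle-high libraries or in the lower run alone, and 0 without the run covariate, in the higher run, or without the pineal-high or skin-high libraries.

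**Figure D5:**
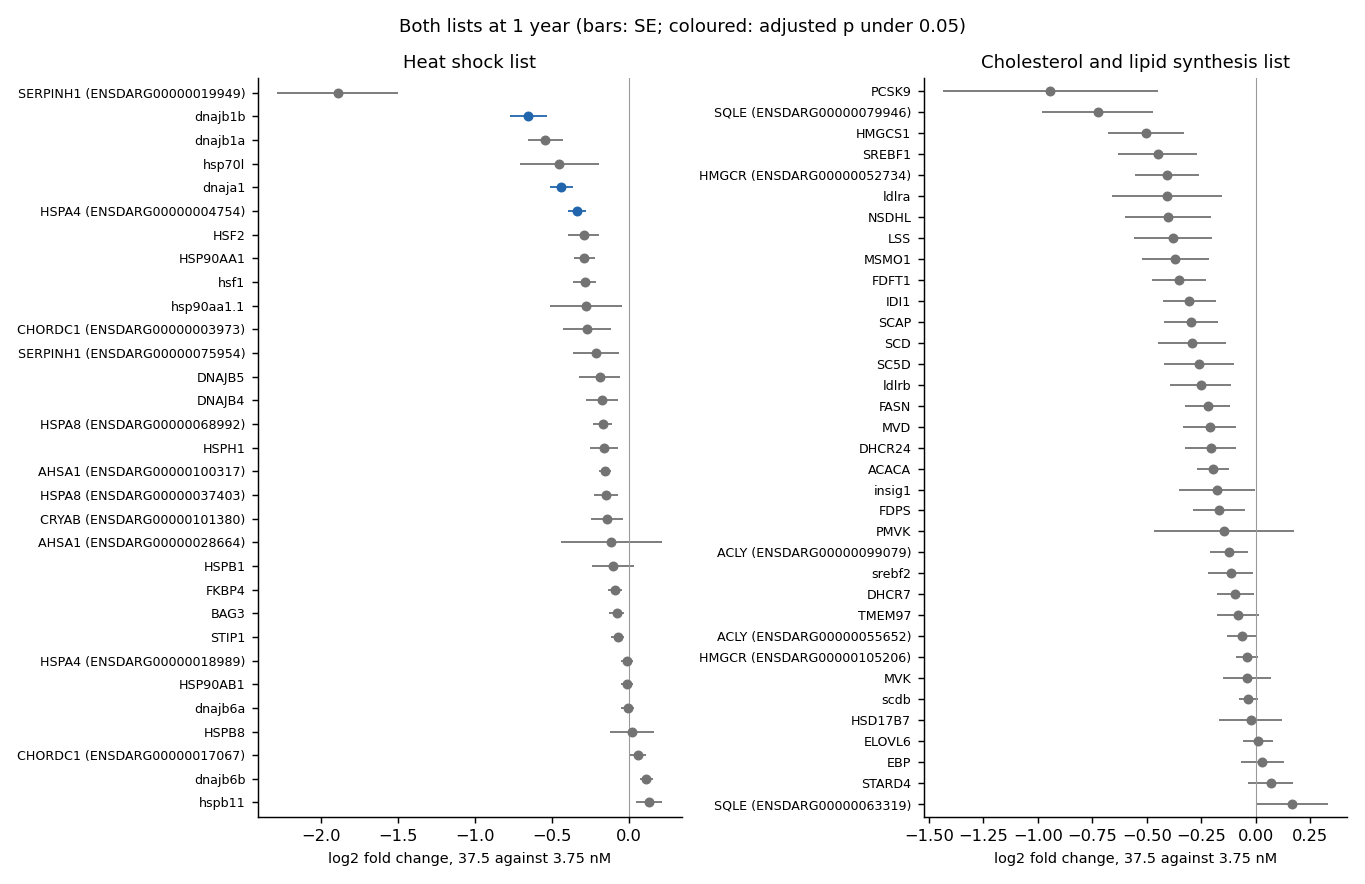
Log2 fold change at 37.5 nM against 3.75 nM (horizontal axes, bars are SE) of the 31 heat shock genes (left) and the 35 genes of cholesterol and lipid synthesis (right) tested. Most points lie below 0 in both panels, 27 and 31 of them, while 3 heat shock genes (blue) and no cholesterol gene passed at an adjusted p under 0.05.

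A further set of 4 called genes stood in a list put together around YPEL3 and MXD3 from earlier results of these data, so its count of 4 higher of 22 is no independent evidence. MXD3, a partner of MAX that represses transcription, had the smallest p of all genes. It had 5.28, 7.05 and 9.89 CPM at 3.75 nM and 10.1, 11.4 and 12.2 CPM at 37.5 nM. The groups did not overlap, and MXD3 rose by 0.63 (SE 0.08, adjusted p = 0.00704), by 0.86 in the lower run and 0.44 in the higher run (0.39 there without replicate 6). YPEL3, of the yippee family of zinc-binding proteins, rose by 0.31 (SE 0.05, adjusted p = 0.0141) from 52.7, 56.5 and 61.3 CPM to 59.8, 69.7 and 77.7 CPM. Both calls held in 19 of 19 fits, and replicate 6 had an ordinary level of YPEL3 (56.4 CPM against 54.4 to 60.7 CPM in the rest of its run).

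The other members of that set were IMPDH1 (ENSDARG00000029524), the enzyme that commits purine synthesis to guanine nucleotides, and FLCN, folliculin, a regulator of nutrient signalling at the lysosome. IMPDH1 rose by 0.40 (SE 0.07, adjusted p = 0.0274) from 41.2, 54.2 and 67.5 CPM to 62.5, 74.9 and 82.7 CPM. FLCN had the smallest change of the 24, at 0.20 (SE 0.04, adjusted p = 0.0274), from 33.2, 35.1 and 37.9 CPM to 36.5, 40.6 and 43.2 CPM. For both, the ranges overlapped and 9 of 9 fish exceeded the other median, and each call held in 10 of 19 fits. MXD4, a relative of MXD3, stood at 0.34 (SE 0.09, adjusted p = 0.173) and passed without replicate 6 (0.40, adjusted p = 0.046). The paralogs YPEL5 (0.10, SE 0.07), YPEL2 (-0.26, SE 0.11) and YPEL1 (-0.06, SE 0.08) did not pass. Nor did the second IMPDH1 gene (ENSDARG00000042336), with 11.4 to 18.4 CPM at 3.75 nM and 12.9 to 19.5 CPM at 37.5 nM. In the list of 49 cell cycle genes 1, MXD3, was called by edgeR over the whole comparison, 2 without replicate 6 at 3.75 nM, and 2 by DESeq2.

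One neuropeptide gene was higher at 37.5 nM. The gene pnocb, a precursor of the opioid-like peptide nociceptin, had 22.7, 28.4 and 36.7 CPM at 3.75 nM and 34.9, 42.7 and 47.7 CPM at 37.5 nM. Of 9 fish, 7 exceeded the whole 3.75 nM range, and pnocb rose by 0.52 (SE 0.09, adjusted p = 0.0256), by 0.52 in the lower and 0.54 in the higher run. Its difference was 0.50 with replicate 6 left out, and its difference between the runs did not pass (-0.02, adjusted p = 0.918). The call held in 14 of 19 fits. Its paralog pnoca (0.02, SE 0.14) and the nociceptin receptor gene OPRL1 (0.05, SE 0.07) did not pass, and neither did PENK (0.19, SE 0.10) or pdyn (0.14, SE 0.15), which code for enkephalin and dynorphin precursors.

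Of 44 hypothalamic neuropeptide genes, pnocb was the 1 that passed. In this list 36 had a positive log2 fold change (48.4% of all genes did), 5 were higher and 0 lower at unadjusted p under 0.05 (4.67% and 7.64% of all genes), and the median was 0.14, though -0.02 in the lower and 0.27 in the higher run. In the lower run alone 21 were positive and 23 negative, and in the higher run 37 and 7. Without the 9 libraries of high marker scores 25 were positive and 19 negative, with a median of 0.016. VIP, a peptide of the mammalian clock nucleus among other sites, stood at 0.33 (SE 0.13, adjusted p = 0.333) with 23.5, 41.1 and 69.2 CPM at 3.75 nM and 45.4, 50.5 and 62.9 CPM at 37.5 nM. POMC and prl, hormone genes of the pituitary, had log2 fold changes of 1.58 and 2.67 that came from replicate 4 at 37.5 nM, with 37.3 and 90.1 CPM, and did not pass.

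Further called genes belong to no list. H1-10, a linker histone, rose by 0.68 (SE 0.13, adjusted p = 0.0327) from 13.7, 28.1 and 36.7 CPM to 30.1, 45.2 and 55.4 CPM, a call kept in 8 of 19 fits. The groups overlapped.

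Another 4 called genes carry clone names or no symbol. The gene si:ch211-278f21.5 had 4.81, 7.53 and 8.46 CPM at 3.75 nM and 8.83, 13.1 and 16.2 CPM at 37.5 nM, and zgc:194398 had 17.1, 19.5 and 21.3 against 12.8, 14.8 and 16.3 CPM. Neither overlapped between the groups, and both calls held in 19 of 19 fits (0.81, SE 0.12, and -0.37, SE 0.06, each at an adjusted p of 0.0101). ENSDARG00000043237 did not overlap either, with 11.2, 18.4 and 34.5 against 38.1, 39.4 and 57.6 CPM (1.08, SE 0.18, adjusted p = 0.0254). Its lowest value was that of replicate 6, when the rest of the higher run at 3.75 nM had 27.0 to 34.5 CPM. The gene si:ch211-132b12.7 fell by 1.205 (SE 0.22, adjusted p = 0.0324), or by 0.98 without replicate 6, which had the highest value of 52.6 CPM.

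No gene of the respiratory chain, which rotenone blocks, passed the test by edgeR or by DESeq2, while nearly all had small positive values. Of all genes 48.4% were positive and 4.67% were higher at unadjusted p under 0.05, and the counts of the 2 nuclear lists at unadjusted p under 0.05 lay near that share. Of 40 nuclear genes of complex I, 39 had a positive log2 fold change (median 0.09) and 2 were higher at unadjusted p under 0.05. Of 47 genes of complexes II to V, 47 were positive (median 0.10) and 3 had an unadjusted p under 0.05, and of 13 mitochondrially encoded genes 13 were positive (median 0.17) and 3 had one. NDUFB1, an accessory subunit of complex I, stood at 0.14 (SE 0.06, adjusted p = 0.388). UQCRC2, of complex III, stood at 0.14 (SE 0.05, adjusted p = 0.326) and MT-CYB, its mitochondrially encoded partner, at 0.25 (SE 0.10, adjusted p = 0.336). In every one of these genes the groups overlapped. The medians were similar in both runs, at 0.10 and 0.11 for complex I, 0.11 and 0.11 for complexes II to V, and 0.22 and 0.17 for the mitochondrially encoded genes (0.10 in the higher run without replicate 6).

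The share of counts in mitochondrially encoded genes was 11.5% ± 1.33 (SD, n = 9) at 37.5 nM and 10.2% ± 1.41 (n = 10) at 3.75 nM. The difference of 1.33 percentage points was not past the threshold by a two-sided exact permutation test (p = 0.0551), with 7 of 9 fish above the other median. It was 1.45 points in the lower run (exact p = 0.0794) and 1.12 in the higher run (exact p = 0.31).

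Genes of cholesterol and lipid synthesis leaned lower without a call. Of 35 genes 0 passed by edgeR or DESeq2, 31 had a negative log2 fold change (51.6% of all genes did) and 11 were lower and 0 higher at unadjusted p under 0.05 (7.64% and 4.67% of all genes), with a median of -0.21 (-0.17 in each run). HMGCS1, an early enzyme of the mevalonate pathway, had 38.9, 66.8 and 84.8 CPM at 3.75 nM and 31.9, 44.2 and 69.4 CPM at 37.5 nM (-0.50, SE 0.17, adjusted p = 0.288). SQLE (ENSDARG00000079946), squalene epoxidase, stood at -0.73 (SE 0.26, adjusted p = 0.299) and FDFT1, squalene synthase, at -0.35 (SE 0.12, adjusted p = 0.293). The groups overlapped broadly in each. In bulk tissue, fewer cells of a type and less RNA per cell cannot be told apart, which applies to this list and to the cell type lists alike.

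The lists tied to rotenone and to Parkinson disease, which the compound models in rodents, gave no call by edgeR. Of 34 dopamine neuron genes 0 passed. TH, the gene of tyrosine hydroxylase, which starts dopamine synthesis, had a mean of 14.7 CPM at 3.75 nM and 13.7 CPM at 37.5 nM (-0.11, SE 0.14). The gene th2 had 7.39 and 7.71 CPM (0.07, SE 0.26). The dopamine transporter gene SLC6A3 stood at 0.21 (SE 0.24). Of 17 Parkinson disease orthologs and synucleins tested 0 passed, with mapta, a tau gene, nearest at -0.19 (SE 0.07, adjusted p = 0.293). Of 41 oxidative stress genes 0 passed by edgeR and 1 by DESeq2. At unadjusted p under 0.05, 3 were higher (7.32%) and 1 was lower (2.44%), against 4.67% and 7.64% of all genes. HMOX1, heme oxygenase, had 4.24, 5.38 and 6.16 CPM at 3.75 nM and 5.62, 6.36 and 7.18 CPM at 37.5 nM (0.27, SE 0.07, adjusted p = 0.178), so that 9 of 9 fish exceeded the other median. Of 37 integrated and mitochondrial stress genes 0 passed by edgeR and 3 by DESeq2. At unadjusted p under 0.05, 1 was higher (2.70%) and 5 were lower (13.5%), against 4.67% and 7.64% of all genes. Among them mthfd2, an enzyme of mitochondrial folate metabolism, stood at -0.31 (SE 0.07, adjusted p = 0.104). HSPA5, the chaperone of the endoplasmic reticulum, stood at -0.19 (SE 0.05, adjusted p = 0.156).

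Cell type lists gave no call by edgeR either, while DESeq2 called 1 synapse and neuron gene, 2 endothelium genes and 0 in the other 4 lists named here. Synapse and neuron genes had 0 of 75 past edgeR's test, with 49 negative values (51.6% of all genes were negative), 11 lower at unadjusted p under 0.05 (7.64% of all genes) and a median of -0.08, led by RBFOX3 (ENSDARG00000074310), a neuronal splicing factor gene, at -0.46 (SE 0.12, adjusted p = 0.173). Microglia and macrophages had 0 of 33 (median -0.07), radial glia and astrocytes 0 of 24 (median -0.06), oligodendrocytes 0 of 20 (median -0.11), endothelium 0 of 39 (median -0.04), and interferon and antigen presentation 0 of 38 (median -0.07). The sign of the last 3 medians differed between the runs, at -0.14 in the lower and 0.02 in the higher run for oligodendrocytes, -0.04 and 0.06 for endothelium, and -0.15 and 0.01 for interferon and antigen presentation. With 9 and 10 fish, these counts show only that no difference in these genes was past the threshold. The smallest adjusted p in the microglia list was 0.308 and in the interferon list 0.291.

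No gene passed by edgeR over the whole comparison in lists of other processes. Of 16 glucocorticoid response genes and 42 immediate early genes 0 passed, against 1 in each by DESeq2, by edgeR with all 26 libraries and by edgeR in the lower run alone, and the smallest p in both belonged to the PER1 genes already given. DNA damage and p53 genes had 0 of 36, with cdkn1a, an inhibitor of the cell cycle, at 0.59 (SE 0.18, adjusted p = 0.233). Inflammation and complement genes had 0 of 25 by edgeR and 1 by DESeq2, with mmp13a, a collagenase gene, at 1.04 (SE 0.32, adjusted p = 0.248). Its level was low, at 0.175 to 0.683 CPM at 3.75 nM. At 37.5 nM mmp13a had 0.919 to 2.41 CPM in the lower run but 0.208 to 0.612 CPM in the higher run. Extracellular matrix (0 of 47), glycolysis (0 of 47), proteasome (0 of 45), cytosolic ribosomal proteins (0 of 81), progenitors and immature neurons (0 of 45), pericytes and smooth muscle (0 of 23), lymphocytes and granulocytes (0 of 19), non-visual photoreceptors (0 of 19), and DNA photorepair (0 of 9) gave no call. Neither did the pituitary list (0 of 13, summed level 1086 to 1531 CPM at 3.75 nM and 1207 to 1678 CPM at 37.5 nM) or the red blood cell list (0 of 14, 518 to 819 and 584 to 812 CPM).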

How the data were processed

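The deposited files used were 2 tables of read counts per gene (32105 Ensembl genes), which the authors made without normalization. Tables named RPKM were not used here. The build GRCz10 and the tools featureCounts 1.4.6-p4, STAR 2.4.1d and CASAVA 1.8.2 are named, without role or order, per the submitters' processing notes. The gene annotation, the strand setting and the handling of multiply mapped reads: not given in the sources used here. Per the labels' protocols libraries came from the TruSeq RNA kit v2, which does not mark strand, so overlapping and antisense genes cannot be told apart, and near-identical paralogs are uncertain. Of 32105 genes 26269 (81.8%) had a symbol.

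Tables were joined on gene identifier. Counts were tested with edgeR 4.0.16 in R 4.3.3 (quasi-likelihood F test, TMM, filterByExpr, robust dispersion, run of title numbers as covariate, Benjamini-Hochberg adjustment at 0.05). Each SE was obtained from the log2 fold change and its F statistic (their ratio after taking the root of F), and CPM use TMM library sizes. Alternatives included DESeq2 1.42.0 and limma 3.58.1 (voom). The script was tested on simulated data. For the mitochondrial share, Python 3.11.15 with SciPy 1.17.1 gave exact permutation p-values. No 2 libraries held identical values. The naming rule took all called genes, every clock list member tested, the most abundant gene and up to 3 members of smallest p of each other list; some of the genes so named are not reported here, and further members were chosen after their values were seen. The comparison, the 38 lists (934 of 1064 symbols matched) and these rules were chosen with earlier results of these data known. No sequence is printed.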

Additional observations from a re-analysis of the deposited data

Results flagged for a closer look

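In 2 called genes and in the mitochondrial share, 1 fish at 3.75 nM lay far from the others of its group by Dixon's test. Replicate 6 had the highest NR1D2 value, 344 CPM, with the nearest fish at 218 CPM, and the lowest si:ch211-278f21.5 value, 4.81 CPM, with the nearest at 6.63 CPM. Replicate 8 had the highest share of mitochondrially encoded counts, 13.7%, with the nearest fish at 11.0%. These were 3 of 50 groups examined, and chance flags about 1 in 20 groups.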

How the results depend on the processing

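The count of called genes, 24 (17 higher, 7 lower), ranged from 8 to 38 with 1 library left out (5 to 22 higher, 2 to 16 lower). Clock calls, 9, ranged from 2 to 11, and heat shock calls, 3, from 0 to 5. DESeq2 called 199 genes (93 higher, 106 lower), with 16 clock and 7 heat shock genes, and 23 genes for the interaction of concentration and run, against 0 by edgeR (1452 at unadjusted p under 0.05). A fit of all 26 libraries called 37 (20 higher, 17 lower; 13 clock, 5 heat shock), and limma's voom 35 (21 and 14). Without the run covariate 10 were called (7 and 3; 4 clock, 0 heat shock), and in the lower run alone 12 (7 and 5; 5 clock, 1 heat shock). By edgeR, 0 genes, and thus 0 higher, 0 lower, 0 clock and 0 heat shock genes, were called in the higher run alone (2454 at unadjusted p under 0.05) and without the libraries of any high marker score (1387). Added after seeing the data were 4 fits. Leaving out the muscle-high libraries called 7 genes (5 higher, 2 lower; 2 clock, 1 heat shock), while leaving out the pineal-high (2209 at unadjusted p under 0.05) or skin-high libraries (1943), or taking the higher run without replicate 6 at 3.75 nM (1938), called 0. Each of these fits has fewer samples than the whole comparison, and other causes were not tested. RLE or upper-quartile scaling, no filter, a CPM filter, a dispersion without robust estimation and removal of mitochondrial genes gave 23 to 25 calls. The difference in mitochondrial share ranged from 1.04 to 1.72 percentage points with 1 library left out. Of the fits over the 24 genes, 541 kept the call and 323 lost it, and none reversed. All of these fits reuse libraries on which the 24 were chosen. No paired analysis was possible because the titles give each fish its own number and the groups share none.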

Other observations

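The gene histh1l1, another linker histone, was examined after the values of H1-10 were seen. It had 10.2, 23.3 and 40.1 CPM (lowest, median, highest) at 3.75 nM and 24.3, 47.7 and 58.0 CPM at 37.5 nM (log2 fold change 0.80, SE 0.17, adjusted p = 0.0796 by edgeR). It had the sign of H1-10 and did not pass, and the groups overlapped.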
